A study of Homo sapiens with 38 samples.

Results

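The axon guidance ligands and receptors described here are the 69 protein-coding genes of the deposited expression table whose symbols name an ephrin, an Eph receptor, a semaphorin, a plexin, a neuropilin, a SLIT, a ROBO, a netrin, an UNC5 receptor or DCC. They were picked from 58219 listed genes, 19817 of them protein-coding, by a rule on symbols that uses no measured value. The rule was set with earlier results of these data known. The set holds 35 ligands and 34 receptors. The cells were H9, an established human embryonic stem cell line, of wild-type genotype in every group, so that all comparisons rest on 1 line. RNA of 38 poly(A) libraries was measured in 19 groups of 2: undifferentiated cells at day 0 (D0 ESC), and cells labelled as neural progenitors at day 4 and at day 8 in 9 conditions each. The conditions were culture without CT (CT0.0, called untreated here), CT at 0.4, 0.8, 1.0, 2.0, 3.0 or 4.0 µM, IWP2 at 2.0 µM, and CT at 4.0 µM together with RA at 1.0 µM (CT4.0RA). The submitters describe CT, which they leave unexpanded, as an activator of WNT signalling; IWP2 blocks the secretion of WNT ligands, and RA is the field's usual abbreviation for retinoic acid. Their design assigns IWP2 to a rostral forebrain fate, rising CT to diencephalic, mesencephalic and rhombencephalic fates, and CT4.0RA to spinal cord.

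Axon guidance genes are best known for steering growing axons, and in the early neural tube the same molecules also mark territories and keep neighbouring cell populations apart. Ephrins are membrane-bound ligands of the Eph receptor tyrosine kinases, with ephrin-A ligands tethered by a lipid anchor and ephrin-B ligands spanning the membrane. Class 3 semaphorins are secreted and act through neuropilins, which bind the ligand, and plexins, which carry the signal inward, whereas the other vertebrate semaphorins are mostly membrane-bound and bind plexins directly. SLIT proteins repel cells and axons through ROBO receptors. Netrins attract through DCC and repel through UNC5 receptors.

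Levels are given in TPM, the share of a library's transcripts that a gene accounts for, scaled for transcript length, so that genes can be compared with each other. The depth of each library is not given in the sources used here, and the precision rests on 2 libraries a group. The labels call these biological replicates without saying whether they were separate differentiations. The p-values rest on the spread within groups, pooled over all 19 groups, and cover no variation beyond these samples. Replicates correlated with r between 0.958 and 0.972 across genes, and 33 of 38 libraries were nearest to their own replicate. The 4 pluripotency markers summed to 3184 TPM in D0 ESC and to between 32.1 and 181 TPM in the other groups. The 5 neural progenitor markers summed to 286 TPM in D0 ESC and to between 407 and 1535 TPM in the differentiated groups other than CT3.0 and CT4.0 at day 8, where the sums were 350 and 315 TPM. Blood markers summed to at most 1.43 TPM. The share of TPM taken by ribosomal protein genes was lowest in D8 IWP2 (16.6%) and highest in D8 CT4.0RA (36.8%), and a larger share lowers the TPM of the other genes. In bulk RNA, fewer cells of a type and less RNA per cell cannot be told apart.

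All 69 genes reached the minimum level for testing, 62 were above 0 in every library and 34 reached 1 TPM in every library. The highest group mean exceeded 10 TPM for 53 genes and 100 TPM for 13. That highest mean fell at day 8 for 41 genes, at day 4 for 20 and in D0 ESC for 8. The D8 CT0.4 group held the peak of 16 genes and D4 IWP2 that of 10. Peaks were not counted over all genes, so these counts are not read as particular to the members. Ribosomal protein genes took 16.8% of TPM in D8 CT0.4 and 19.5% in D4 IWP2, near the low end of the groups. The part of that share in the counts was not tested. Over the 38 libraries the most abundant ligand was SEMA4C, a membrane semaphorin, with a mean of 88.7 TPM, and the most abundant receptor was PLXNB1, a plexin that binds the semaphorin SEMA4D, with a mean of 147.7 TPM. At the low end EPHA5 had a mean of 0.14 TPM and ROBO4, known from endothelium, one of 0.38 TPM. Exons of 26 of the 69 genes overlap another annotated gene, for 21 of them on the opposite strand. The levels of those 21 are uncertain where the library preparation did not keep strand. They include NRP1, NRP2, EPHA1, EPHA4, EPHB1, EPHB2, EFNB2, DCC, UNC5A, UNC5C, SLIT3, SEMA3F, SEMA5A, SEMA6A, PLXNC1 and NTN5. SLIT1, EFNA3, EFNA4, SEMA3B and PLXNB3 overlap a gene on their own strand, SLIT1 a read-through transcript, and their levels are uncertain whether or not strand was kept. EPHA7, UNC5D, SLIT2, PLXNA2, ROBO1, ROBO2, NTN1, EFNB3 and SEMA6D are not among them.

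**Figure D1:**
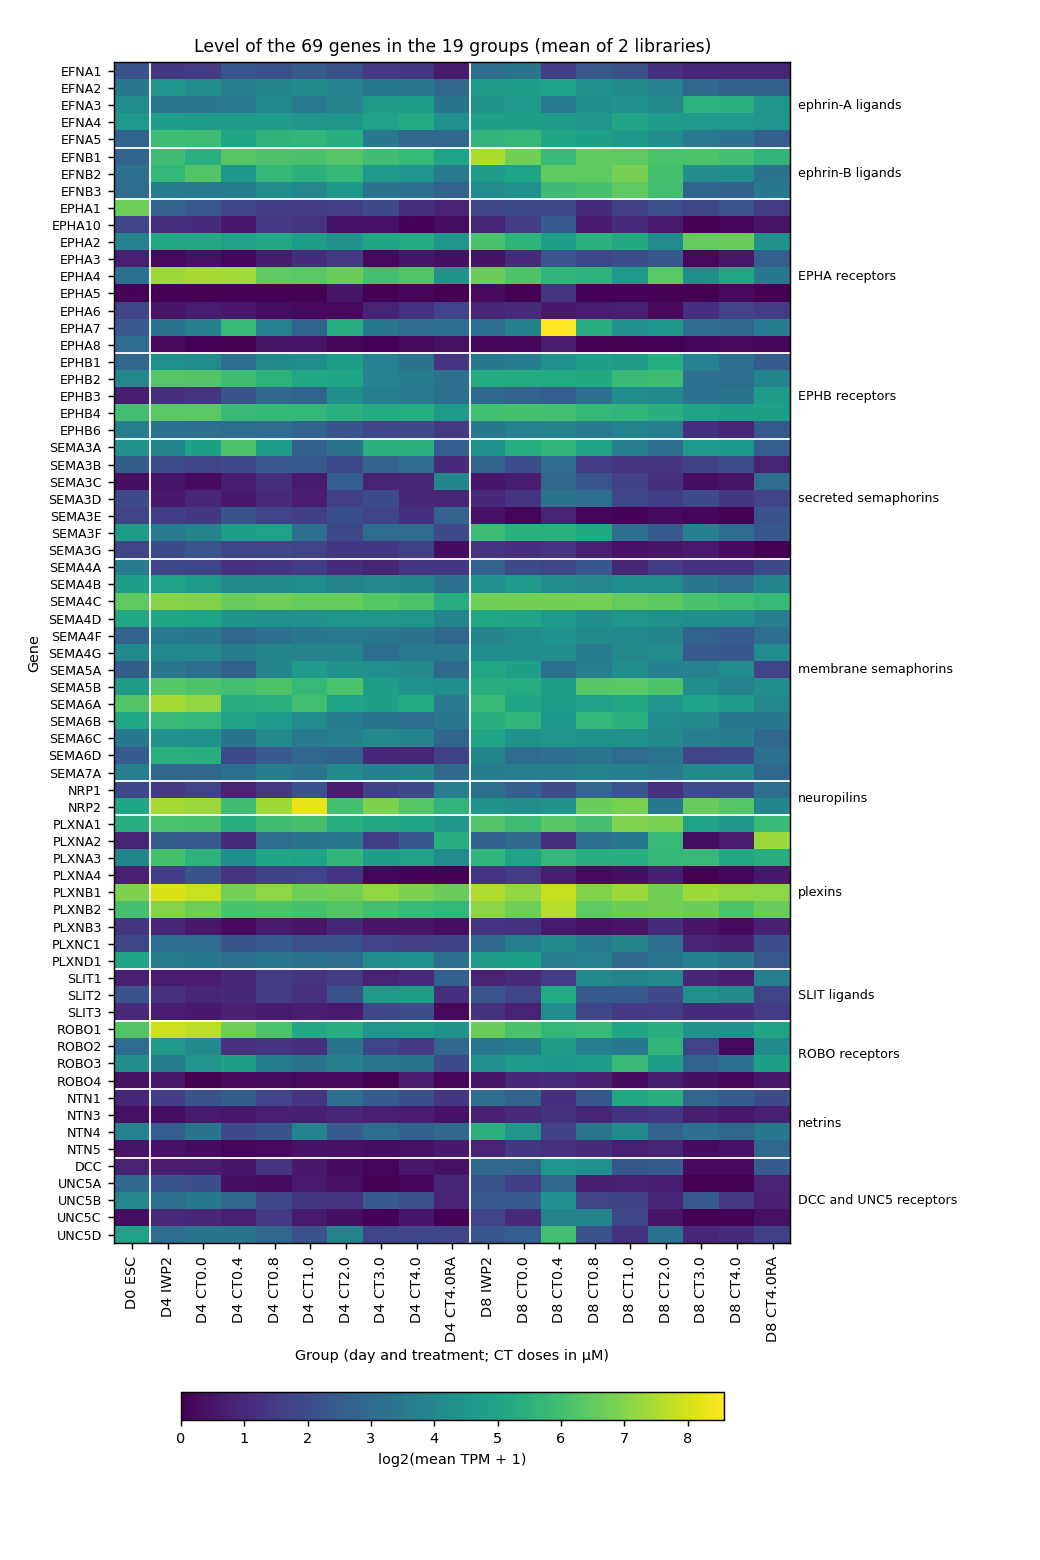
Heat map of the 69 genes (rows, by family) in the 19 groups (columns), coloured by log2(mean TPM + 1) over 2 libraries. The brightest cell is EPHA7 in D8 CT0.4 at 379 TPM, and NRP2 in D4 CT1.0 stands at 310 TPM; white lines separate days and families.

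A gene is called changed where limma gave a Benjamini-Hochberg adjusted p under 0.05, over 28221 genes, together with a change of at least 1 in log2(TPM + 1). That scale understates the change of genes at low levels. For each comparison between groups, the called genes of largest change were named only if their libraries did not overlap. A lack of overlap in those genes is thus no further support. By an F test over the 9 conditions with the same limits on p and on the range of condition means, 56 of the 69 genes varied at day 4 and 62 at day 8. Among all genes tested, 26.3% varied at day 4 and 39.6% at day 8, and among protein-coding genes alone 37.0% and 52.3%. The median range of the members was 1.84 at day 4 and 2.36 at day 8, beside 0.96 and 1.13 for all genes. SEMA6D had the widest range of condition means at day 4, 4.55, and PLXNA2 at day 8, 6.96. The 5 genes called on neither day were EFNA4, EPHA8, PLXNB3, NTN3 and ROBO4.

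On leaving the stem cell state in untreated culture (D4 CT0.0 against D0 ESC), 18 of the 69 genes rose and 7 fell, where 16.8% of all genes (7.51% higher, 9.24% lower) and 20.8% of protein-coding genes were called. The members' median change was 0.30 on the log2 scale, beside 0.05 for all genes. Among the ligands, 6 rose and 2 fell; among the receptors, 12 rose and 5 fell. EFNB2, an ephrin-B ligand of neural and vascular boundaries, was 8.66 and 7.35 TPM in D0 ESC and 73.9 and 79.0 TPM at day 4. EFNB1 was 6.17 and 5.26 TPM and then 39.7 and 45.6 TPM, and EFNA5, an ephrin-A ligand used in topographic mapping, was 5.88 and 5.72 TPM and then 60.3 and 59.0 TPM. The changes in limma were 3.11 ± 0.10 (SE; adjusted p = 1.08e-16), 2.70 ± 0.11 (adjusted p = 1.83e-14) and 3.16 ± 0.25 (adjusted p = 6.49e-10).

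The Eph receptors exchanged places over the same interval. EPHA1 was 96.8 and 106 TPM in D0 ESC, 72.6% of the summed EPHA level, and 3.85 and 4.76 TPM at day 4. EPHA4, a receptor that binds ephrins of both classes, was 7.36 and 9.36 TPM in D0 ESC and 160 and 186 TPM at day 4, when it made up 76.1% of the EPHA sum. Every D0 ESC library thus stood above the day 4 libraries for EPHA1 and below them for EPHA4, as the rule for naming required. EPHA1 fell by 4.28 ± 0.36 (adjusted p = 1.72e-09) and EPHA4 rose by 4.22 ± 0.28 (adjusted p = 5.18e-11). EPHA8 fell from 8.99 and 4.88 TPM to 0.14 and 0 TPM, and EPHB2 rose from 13.4 and 15.7 to 68.8 and 83.6 TPM. Among the semaphorins and their receptors, SEMA6D rose (log2 change 2.94), SEMA4A fell (-1.82), the neuropilin NRP2 rose (2.27) and PLXND1, a plexin known from vessels, fell (-1.62). The netrin receptor UNC5D fell from 29.1 and 30.7 to 9.49 and 8.70 TPM. PLXNB1 and PLXNB2, the most abundant genes that did not pass, changed by 0.97 and 0.65; PLXNB1 passed, at 1.03 or 1.05, without D0 ESC replicate 1 or without D4 CT0.0 replicate 2.

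Between day 4 and day 8 in untreated culture, 9 genes rose and 9 fell, against 5.78% of all genes called (4.11% higher, 1.67% lower). The members' median change was 0.21, beside 0.01 for all genes. NRP2, a co-receptor of class 3 semaphorins, was 157 and 155 TPM at day 4 and 21.2 and 14.5 TPM at day 8, a change of -3.08 ± 0.20 (adjusted p = 2.54e-10). The transmembrane semaphorins SEMA6D and SEMA6A fell by 2.36 and 2.12, and ROBO1, the main SLIT receptor of these cells, went from 205 and 215 TPM to 69.7 and 67.0 TPM. For NRP2 and ROBO1 all day 4 libraries lay above all day 8 libraries, as the rule for naming required. SEMA3F, a secreted ligand that acts through NRP2, rose as NRP2 fell, from 14.1 and 13.7 to 47.8 and 38.2 TPM (1.55 ± 0.16, adjusted p = 3.60e-07). EFNA1 rose from 2.30 and 1.39 to 8.06 and 9.85 TPM, and SEMA5A rose from 7.78 and 8.13 to 25.8 and 28.97 TPM. DCC rose by 2.05 ± 0.45 (adjusted p = 0.00216), but its day 8 libraries, 8.99 and 3.24 TPM, differed from each other, and without the first of them the change was 1.43 with an adjusted p of 0.0714.

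IWP2 gave no called member on either day, which does not show that the levels were the same. No member passed both limits at day 4 or at day 8 in limma, where 0.283% (0.159% higher, 0.124% lower) and 0.425% (0.195% higher, 0.23% lower) of all genes did. At an unadjusted p under 0.05, 1 member was higher and 7 were lower at day 4, and 14 were higher and 6 lower at day 8. EFNB1 had the lowest adjusted p at day 8, with 179 and 187 TPM in IWP2 and 102 and 112 TPM in untreated cells (0.77 ± 0.11, adjusted p = 0.000567), below the limit on size. SEMA3A, a secreted repellent, had 18.7 and 20.4 TPM in IWP2 at day 8 and 46.7 and 34.1 TPM in untreated cells, a difference of -0.99 (adjusted p = 0.0629). NTN4 had 40.3 and 43.7 TPM in IWP2 at day 8 and 18.2 and 24.3 TPM without it, a difference of 0.96 with an adjusted p of 0.484. The 2 most abundant members, PLXNB1 and PLXNB2, differed by 0.28 and 0.30 at day 4 and by 0.37 and 0.41 at day 8.

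**Figure D2:**
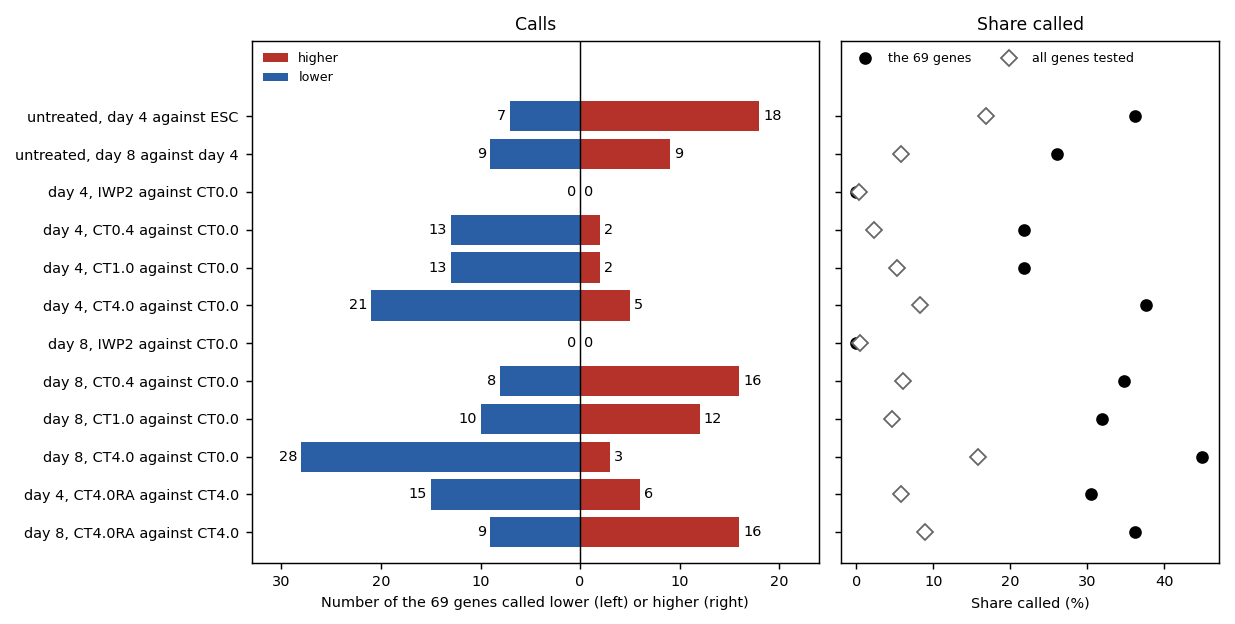
Left, number of the 69 genes called lower (left bars) or higher (right bars) in 12 comparisons; right, share of the 69 genes called (filled circles) and of all genes tested (open diamonds), in percent. The share of the members lies above that of all genes except in the 2 IWP2 comparisons, where no member was called.

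At day 4, CT lowered more of these genes than it raised, by a margin that depended on the scaling. With CT0.4, 2 rose and 13 fell (2.23% of all genes called, 0.659% higher and 1.57% lower), with CT1.0, 2 rose and 13 fell (5.22%, 1.44% higher and 3.78% lower), and with CT4.0, 5 rose and 21 fell (8.3%, 3.31% higher and 4.99% lower). The members' medians were -0.34, -0.29 and -0.47, beside -0.10, -0.18 and -0.06 for all genes. With median-of-ratios scaling, which brings the median of all genes to 0, the calls were 5 higher and 7 lower for CT0.4, and 4 higher and 7 lower for CT1.0. For CT4.0 they were 6 higher and 18 lower. With that scaling the members' medians were -0.19 for CT0.4 and -0.08 for CT1.0, so the excess of lower calls at CT0.4 and CT1.0 is smaller on that scale. With CT4.0 the fall was mostly among receptors: 15 receptors fell and 1 rose, while 6 ligands fell and 4 rose.

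The strongest loss at day 4 was of SEMA6D, a transmembrane semaphorin that binds PLXNA1. Its level was 39.0 and 44.5 TPM in untreated cells, 2.18 and 3.23 TPM in CT0.4, 5.43 and 7.56 TPM in CT1.0 and 0.97 and 0.75 TPM in CT4.0. Against untreated cells the lowest dose already gave -3.54 ± 0.29 in limma (adjusted p = 2.03e-08), and CT4.0 gave -4.52 ± 0.29 (adjusted p = 3.94e-11). ROBO2 showed the same early loss, from 13.9 and 17.4 TPM to 1.55 and 1.16 TPM in CT0.4. ROBO1 was 205 and 215 TPM untreated, 94.2 and 109 in CT0.4, 76.4 and 62.2 in CT0.8, 33.2 and 36.5 in CT1.0, 35.7 and 43.7 in CT2.0, 20.4 and 23.2 in CT3.0, and 28.5 and 20.3 in CT4.0. Against untreated cells ROBO1 fell by 1.05, 2.56 and 3.07 on the log2 scale at CT0.4, CT1.0 and CT4.0, while no step between neighbouring doses from CT0.4 upward was called for it at day 4. SEMA6A, from the same class as SEMA6D, fell from 144 and 145 TPM to 38.9 and 43.5 in CT0.4 and 32.3 and 41.0 in CT4.0. EFNA5 lay between 28.1 and 60.3 TPM from untreated cells to CT2.0 and was 5.38 and 6.99 TPM in CT4.0 (-3.09 ± 0.25, adjusted p = 2.06e-09). EPHB2 fell from 68.8 and 83.6 to 9.53 and 13.1 TPM in CT4.0, a change of -2.65.

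Few genes rose with CT at day 4. EPHA7 and SEMA3A rose with CT0.4, and EPHB3 rose with both CT1.0 and CT4.0. EPHA7, an Eph receptor of ephrin-A ligands, was 12.1 and 12.7 TPM untreated and 56.9 and 48.0 TPM in CT0.4 (1.99 ± 0.18, adjusted p = 1.17e-07), then 14.1 and 11.5 TPM in CT0.8 and again higher, at 28.9 and 48.9 TPM, in CT2.0. SEMA3A was 28.5 and 28.1 TPM untreated, 78.3 and 63.0 TPM in CT0.4, its highest day 4 level, and 30.4 and 19.3 TPM in CT0.8. In CT1.0, SEMA3A was below untreated cells at 5.91 and 4.67 TPM (-2.23), and EPHB3 and SEMA5A were the 2 genes that rose. EPHB3 was 1.07 and 1.78 TPM untreated, 5.94 and 5.68 TPM in CT1.0, 19.6 and 17.04 TPM in CT2.0 and 8.85 and 12.8 TPM in CT4.0. SLIT2, a secreted repellent, was between 0.78 and 4.33 TPM up to CT2.0 and reached 22.8 and 28.0 TPM in CT3.0 and 27.6 and 29.01 TPM in CT4.0. For SLIT2 the change with CT4.0 was 3.99 ± 0.25 (adjusted p = 3.84e-11), and SLIT3 and EFNA3 rose by 1.42 and 1.40. SEMA3B also rose (1.19), a call lost without D4 CT0.0 replicate 1 (0.91) or D4 CT4.0 replicate 2 (0.98). In the D4 CT4.0 libraries 3 of 4 early mesoderm markers reached 1 TPM and their sum was 32.9 and 45.8 TPM, beside 0.81 and 1.46 TPM in untreated cells, and the neural progenitor markers summed to 415 and 399 TPM, beside 1048 and 1079 TPM. The neuron markers summed to 302 and 389 TPM, beside 227 and 240 TPM, the neural crest markers to 30.03 and 26.2 TPM, beside 52.9 and 62.6 TPM, and the floor plate markers to 80.5 and 75.1 TPM, beside 54.5 and 55.2 TPM. In both groups only 1 of the 5 neural crest markers and 1 of the 4 floor plate markers reached a mean of 1 TPM. The part of these cells in the changes was not tested.

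The level of NRP2 did not follow the CT dose in one direction at day 4. It was 157 and 155 TPM untreated, 57.5 and 64.6 in CT0.4, 139 and 187 in CT0.8, 294 and 326 in CT1.0, 77.0 and 49.4 in CT2.0, and 125 and 110 in CT3.0. No neighbouring doses from CT0.0 to CT3.0 overlapped in their libraries, while the CT0.8 libraries lay on either side of the untreated ones. NRP2 fell with CT0.4 (-1.34 ± 0.20, adjusted p = 7.55e-05), and the steps from CT0.4 to CT0.8 and from CT1.0 to CT2.0 were 1.39 ± 0.20 (adjusted p = 0.0001) and -2.31 ± 0.20 (adjusted p = 3.90e-08). The steps from CT0.8 to CT1.0 (0.94) and from CT2.0 to CT3.0 (0.92) were below the limit on size and were not called. At day 8 NRP2 was 21.2 and 14.5 TPM untreated, 22.9 and 17 in CT0.4, 95.4 and 97.3 in CT0.8, 124 and 107 in CT1.0, 11.3 and 8.57 in CT2.0, and 92.8 and 96.7 in CT3.0. The untreated and CT0.4 libraries overlapped there, with a difference of 0.16 that was not called. The called day 8 steps were 2.23 ± 0.20 from CT0.4 to CT0.8, -3.42 ± 0.20 from CT1.0 to CT2.0 and 3.14 ± 0.20 from CT2.0 to CT3.0. The other neuropilin, NRP1, stayed between 0.49 and 12.1 TPM in all libraries.

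**Figure D3:**
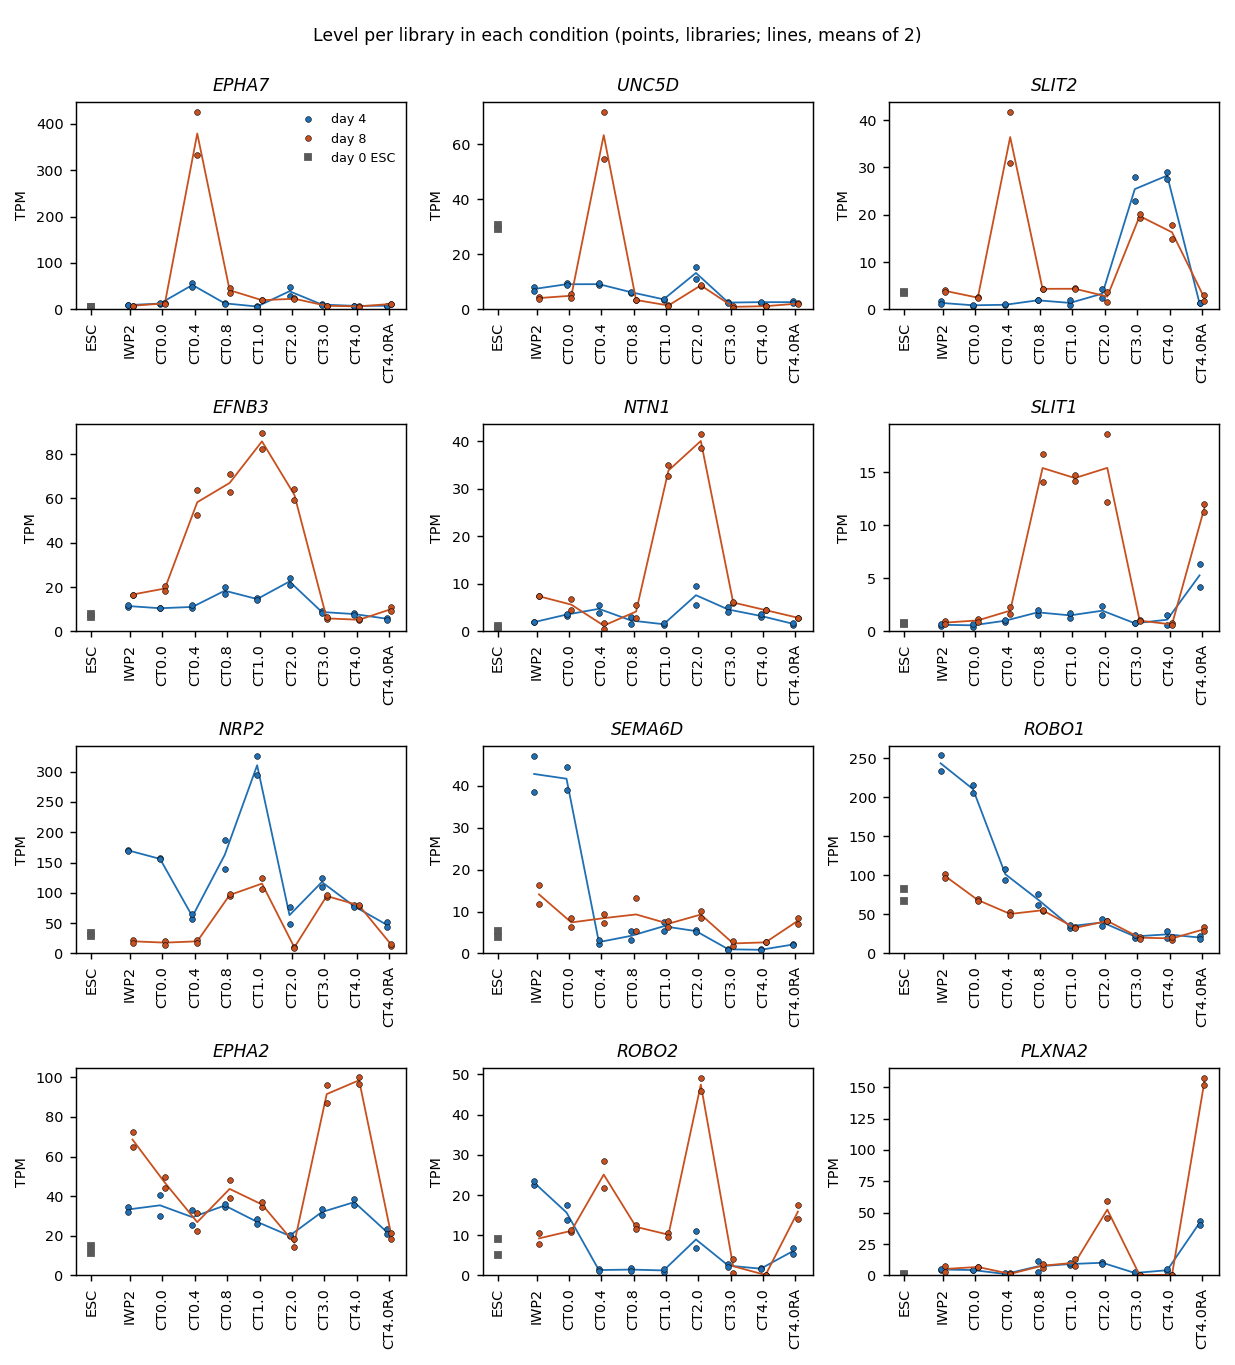
Level in TPM (vertical axis, linear) of 12 genes in D0 ESC (squares) and in the 9 conditions at day 4 (blue) and day 8 (orange); points are libraries and lines join means of 2. EPHA7, UNC5D and SLIT2 peak in D8 CT0.4, NTN1 in D8 CT1.0 and CT2.0, and PLXNA2 in D8 CT4.0RA.

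The promoter windows of RefSeq (GRCh38.p14, from 250 bases before to 50 after a gene's start) covered 59 of the 69 genes with 91 windows. They were searched on both strands for CTTTGAT, the core letters bound by TCF/LEF factors of the WNT pathway, and 3 windows of 3 genes, SEMA3F, SEMA4G and SEMA6D, held it (3.3%), beside 2.62% of all 35116 windows. SEMA6D is among the genes lost at the lowest CT dose. SEMA3F fell at CT1.0 on day 8, but its day 4 mean was 13.9 TPM untreated, 26.7 in CT0.4 and 29.2 in CT0.8. At day 8 its mean was 4.48 TPM in CT2.0 and 12.2 TPM in CT3.0. SEMA4G was called by the F test at day 8 and not at day 4, and it fell with CT4.0 on day 8 (-1.84). Its untreated day 8 mean of 18.1 TPM had a standard deviation of 7.81. The exons of SEMA4G overlap MRPL43 on the opposite strand. The 250 bases before the start are shown for these 3 genes and for EPHA7 and PLXNA2, the genes with the widest day 8 ranges, each 5′ to 3′ on the gene's own strand, with CTTTGAT or its reverse complement in capitals. The SEMA6D window is chr15:47183839-47184088 (plus strand), SEMA3F chr3:50158769-50159018 (plus) and SEMA4G chr10:100972279-100972528 (plus); the last pair lie inside their annotated genes, at internal starts. The EPHA7 window is chr6:93419560-93419809 (minus) and the PLXNA2 window chr1:208244385-208244634 (minus), both at the start nearest to that of the annotated gene.
SEMA6D: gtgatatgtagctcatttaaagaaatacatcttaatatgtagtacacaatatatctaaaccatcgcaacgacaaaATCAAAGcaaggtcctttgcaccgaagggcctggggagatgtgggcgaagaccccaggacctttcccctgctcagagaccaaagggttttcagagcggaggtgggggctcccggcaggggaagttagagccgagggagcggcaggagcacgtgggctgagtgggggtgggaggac
SEMA3F: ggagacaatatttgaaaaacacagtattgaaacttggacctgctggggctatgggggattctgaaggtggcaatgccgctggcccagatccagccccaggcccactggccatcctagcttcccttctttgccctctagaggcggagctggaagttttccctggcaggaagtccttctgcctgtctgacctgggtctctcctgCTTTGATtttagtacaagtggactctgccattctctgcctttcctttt
SEMA4G: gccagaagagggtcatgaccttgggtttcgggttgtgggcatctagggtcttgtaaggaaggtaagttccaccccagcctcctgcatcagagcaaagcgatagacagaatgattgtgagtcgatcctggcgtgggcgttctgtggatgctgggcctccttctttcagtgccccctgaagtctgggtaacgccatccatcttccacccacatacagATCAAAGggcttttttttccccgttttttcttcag
EPHA7: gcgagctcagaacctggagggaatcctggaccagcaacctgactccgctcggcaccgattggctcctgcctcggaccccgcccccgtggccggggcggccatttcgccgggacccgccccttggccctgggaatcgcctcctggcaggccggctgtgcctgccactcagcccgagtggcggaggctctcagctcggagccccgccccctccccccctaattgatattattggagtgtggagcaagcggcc
PLXNA2: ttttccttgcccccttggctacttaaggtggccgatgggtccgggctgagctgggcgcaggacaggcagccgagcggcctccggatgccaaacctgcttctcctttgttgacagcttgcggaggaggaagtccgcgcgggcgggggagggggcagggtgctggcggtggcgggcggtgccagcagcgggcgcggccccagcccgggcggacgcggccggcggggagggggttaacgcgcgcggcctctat
Counted from the start site, the first letter lies at -175 in SEMA6D, -48 in SEMA3F and -35 in SEMA4G, and the EPHA7 and PLXNA2 windows have none. Such matches describe the letters in these windows only.

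At day 8 the lowest CT dose had the most members at their peak, a count that was not made over all genes. Against untreated day 8 cells, 16 members rose and 8 fell with CT0.4, where 6.03% of all genes were called (3.55% higher, 2.48% lower); 9 receptors rose and 2 fell, and 7 ligands rose and 6 fell. The members' median was 0.11, beside 0 for all genes. EPHA7 stood out in level at 426 and 332 TPM, beside 13.3 and 12.2 TPM in untreated cells and 46.7 and 35.5 TPM in CT0.8. The next highest library of any group stood at 56.9 TPM, and EPHA7 made up 81.2% of the summed EPHA level there. The change against untreated cells was 4.78 ± 0.18 (adjusted p = 1.00e-14). EFNA5, one of its ligands, was not called, with 33.3 and 32.4 TPM in CT0.4 and 52.9 and 49.98 TPM untreated (-0.63, adjusted p = 0.0952).

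The netrin receptors rose as a family in D8 CT0.4, with all 5 called. UNC5D was 71.8 and 54.7 TPM against 5.65 and 4.19 TPM untreated (3.44 ± 0.17, adjusted p = 1.11e-12). UNC5C was 15.04 and 11.3 TPM against 0.75 and 1.31 TPM, and UNC5B 22.0 and 16.8 TPM against 4.68 and 4.32 TPM. For these UNC5 genes no CT0.4 library overlapped an untreated one, which the rule for naming required of UNC5D and UNC5C. DCC, the attractive netrin receptor, was 29.1 and 14.6 TPM against 8.99 and 3.24 TPM (1.74 ± 0.45, adjusted p = 0.00906), and UNC5A rose by 1.39. Of the netrins, NTN1 and NTN4 fell: NTN1 was 0.59 and 1.83 TPM against 4.45 and 6.78 TPM (-1.62), and NTN4 was 0.78 and 3.72 TPM against 18.2 and 24.3 TPM (-2.93). The netrin sum was 6.18 TPM in this group, the lowest of the 19, and the sum of the DCC and UNC5 receptors was 124 TPM, the highest. DCC and UNC5C were not high in D8 CT0.4 alone. In D8 CT0.8 their means were 18.7 and 13.7 TPM, for UNC5C the highest of any group, and the receptor sum was 38.8 TPM.

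Among SLIT ligands, SLIT2 was 41.8 and 31.0 TPM in D8 CT0.4 against 2.52 and 2.40 TPM untreated (3.42 ± 0.25, adjusted p = 7.61e-10), and SLIT3 was 20.4 and 14.5 TPM against 0.72 and 0.77 TPM (3.39 ± 0.26, adjusted p = 1.17e-09). SLIT1 did not pass at this dose (0.54). The secreted semaphorins SEMA3B, SEMA3C and SEMA3D rose by 1.02, 2.19 and 1.96, and the transmembrane ephrins EFNB2 and EFNB3 rose as well, EFNB3 by 1.54. PLXNA2 fell by 1.79 ± 0.43 (adjusted p = 0.00502), a call lost without D8 CT0.4 replicate 2 (-1.51, adjusted p = 0.0652). PLXNB2, which did not pass at 0.93, passed without D8 CT0.0 replicate 1 (1.05) or D8 CT0.4 replicate 2 (1.06). In these libraries all 4 mesenchyme markers reached 1 TPM and their sum was 105 and 82.3 TPM, against 12.1 and 12.2 TPM untreated, of which COL3A1 gave 89.1 and 66.6 TPM, while COL1A1 was 6.17 and 3.55 TPM. The 5 neural progenitor markers summed to 1246 and 1422 TPM, against 1263 and 1159 TPM untreated. The neural crest markers summed to 16.8 and 15.9 TPM, against 194 and 185 TPM, the floor plate markers to 22.0 and 41.7 TPM, against 85.3 and 79.1 TPM, and the neuron markers to 429 and 363 TPM, against 275 and 293 TPM. In both groups 2 of the 5 neural crest markers and 2 of the 4 floor plate markers reached a mean of 1 TPM. FOXD3 and TFAP2B were 0 in both untreated libraries, so the untreated neural crest sum rests on few genes. The part of mesenchymal, neural crest, floor plate or neuronal cells in these changes was not tested.

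The days were also compared within one dose. Within CT0.4, in a comparison added after the levels were seen, 28 members rose and 5 fell from day 4 to day 8, where 10.7% of all genes were called (8.9% higher, 1.78% lower). The largest of these were SLIT2 (4.25 ± 0.25, adjusted p = 1.67e-11), DCC (3.98), ROBO2 (3.46), SLIT3 (3.41), UNC5C (3.09) and EPHA7 (2.82). SLIT2 was 0.87 and 1.03 TPM in D4 CT0.4, far below its day 8 libraries. NRP2 and EPHA4 were among the genes that fell, by 1.58 and 1.78.

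At the middle doses of day 8, the ligands EFNB2, EFNB3, SLIT1 and NTN1 were high, while other members of their families were not. The ephrin EFNB1 was 77.6 and 93.9 TPM in D8 CT1.0 and 102 and 112 TPM untreated, and NTN4 was 13.2 and 18.9 TPM in D8 CT1.0 and 18.2 and 24.3 TPM untreated; neither was called. The summed SLIT level was 55.9 TPM in CT0.4, 20.5 TPM in CT1.0, 20.03 TPM in CT2.0 and 21.9 TPM in CT3.0, and the netrin sum was 52.0 TPM in CT1.0 and 50.9 TPM in D8 IWP2. With CT1.0, 12 members rose and 10 fell against untreated cells, where 4.59% of all genes were called (1.79% higher, 2.8% lower). The members' median was -0.12, beside -0.03 for all genes. EFNB3, a ligand of EphB receptors, was 20.6 and 18.1 TPM untreated, 64.0 and 52.5 in CT0.4, 71.0 and 63.0 in CT0.8, 89.4 and 82.1 in CT1.0, 64.1 and 59.2 in CT2.0, and 5.45 and 6.26 in CT3.0. EFNB2 had the same shape, with 32.5 and 28.3 TPM untreated, 120 and 103 TPM in CT1.0 and 17.2 and 17.7 TPM in CT3.0. The libraries of CT0.4 to CT2.0 lay above those of untreated cells and of CT3.0 for both genes, and the CT1.0 changes were 2.09 ± 0.12 (EFNB3, adjusted p = 3.04e-11) and 1.84 ± 0.10 (EFNB2, adjusted p = 6.25e-12). Their receptors EPHB1 and EPHB3 rose too, by 1.13 and 1.42. SLIT1 was 1.20 and 0.865 TPM untreated, 16.7 and 14.1 TPM in CT0.8, 14.2 and 14.7 in CT1.0, 12.2 and 18.6 in CT2.0 and 1.06 and 0.95 in CT3.0, so that SLIT1 and SLIT2 were high at different doses.

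NTN1, the secreted attractant that gave netrins their name, was 2.75 and 5.57 TPM in D8 CT0.8, 34.9 and 32.7 TPM in CT1.0, 38.5 and 41.6 TPM in CT2.0 and 6.02 and 6.12 TPM in CT3.0. No library of any day outside these 2 groups, D8 CT1.0 and D8 CT2.0, exceeded 9.56 TPM. Against untreated cells the CT1.0 change was 2.42 ± 0.28 (adjusted p = 1.54e-06). ROBO3, a divergent ROBO receptor of commissural axons, was highest in CT1.0 at 65.6 and 45.5 TPM, against 26.3 and 23.1 TPM untreated (1.12). In D8 CT1.0, SEMA3F fell from 47.8 and 38.2 to 7.15 and 8.42 TPM (-2.32), while its co-receptor NRP2 rose (2.65), PLXND1 fell by 1.90, and EPHA4 fell from 72.0 and 75.8 to 30.6 and 15.8 TPM. The 9 neuron markers summed to 940 and 723 TPM in D8 CT1.0 and 614 and 660 TPM in D8 CT2.0, against 275 and 293 TPM untreated. The 4 floor plate markers summed to 20.9 and 31.7 TPM in D8 CT1.0 and 12.8 and 32.2 TPM in D8 CT2.0, against 85.3 and 79.1 TPM untreated. Within that list FOXA2 was at 0.56 and 1.44 TPM against 0 in both untreated libraries and SHH at 1.44 and 4.60 TPM against 0.018 TPM in both. The neural crest markers summed to 117 and 119.7 TPM in D8 CT1.0, against 194 and 185 TPM. Of the 5 neural crest markers, 3 reached a mean of 1 TPM in D8 CT1.0 and 2 in untreated cells. The part of neurons, floor plate or neural crest cells in these levels was not tested.

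At day 8 the step from CT2.0 to CT3.0 moved more members than any other dose step: 7 rose and 22 fell, where 12.9% of all genes were called (4.08% higher, 8.79% lower). This and the following steps are comparisons added after the levels were seen. At day 8, 7 members were higher and 10 lower from CT0.4 to CT0.8 (6.49% of all genes called, 2.26% higher and 4.23% lower), 3 and 8 from CT0.8 to CT1.0 (3.71%, 1.66% and 2.06%), and 4 and 5 from CT1.0 to CT2.0 (1.76%, 0.687% and 1.08%). At day 4 the counts were 4 higher and 4 lower from CT0.4 to CT0.8 (1.18%, 0.733% and 0.45%), 0 and 2 to CT1.0 (0.943%, 0.191% and 0.751%), 6 and 4 to CT2.0 (1.9%, 1.08% and 0.815%), and 6 and 13 from CT2.0 to CT3.0 (3.76%, 2.04% and 1.72%). From CT3.0 to CT4.0 no member was called at day 8 (0.308% of all genes, 0.195% and 0.113%) or at day 4 (0.0992%, 0.0638% and 0.0354%). With median-of-ratios scaling the counts were 1 higher and 2 lower from CT0.8 to CT1.0 at day 4 and 4 higher and 3 lower from CT1.0 to CT2.0 at day 8. The day 4 step from CT0.8 to CT1.0 gave 4 calls without D4 CT1.0 replicate 1 and 5 without D4 CT0.8 replicate 2. For the steps from CT3.0 to CT4.0, limma gave unadjusted p under 0.05 for 2 higher and 6 lower members at day 4 and for 1 and 9 at day 8. UNC5B had the lowest adjusted p at day 8, with 4.42 and 4.07 TPM in CT3.0 and 1.90 and 1.53 TPM in CT4.0 (-0.95 ± 0.16).

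The genes that fell between CT2.0 and CT3.0 at day 8 included members of every receptor family except the neuropilins. PLXNA2, a plexin of class 6 and class 3 semaphorin signalling, went from 45.9 and 59.1 TPM to 0.29 and 0.21 TPM (-5.41 ± 0.43, adjusted p = 1.45e-09). ROBO2 went from 49.1 and 45.8 TPM to 4.02 and 0.59 TPM (-4.10 ± 0.34, adjusted p = 2.82e-09), and EPHB2 from 61.1 and 57.9 TPM to 8.68 and 7.66 TPM (-2.72). EFNB3, SLIT1 and NTN1 fell by 3.19, 3.00 and 2.54. Gains were NRP2 (3.14), SLIT2 (2.55), EPHA2 (2.41), EFNA3, SEMA3A (1.48), UNC5B (1.41) and SEMA3F (1.26). EPHA2, an Eph receptor of many epithelia, was 18.6 and 14.4 TPM in CT2.0, 87.0 and 96.02 TPM in CT3.0 and 100.2 and 96.8 TPM in CT4.0, the highest of any group.

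Against untreated day 8 cells, CT4.0 raised 3 members and lowered 28, where 15.8% of all genes (3.15% higher, 12.7% lower) and 19.3% of protein-coding genes were called. The members' median was -0.83, beside -0.27 for all genes, and -0.57 after median-of-ratios scaling, which left 4 higher and 22 lower. Of the ligands 1 rose and 12 fell, and of the receptors 2 rose and 16 fell. Those that rose were SLIT2 (2.32 ± 0.25, adjusted p = 1.31e-07), NRP2 (2.12 ± 0.20, adjusted p = 1.12e-08) and EPHA2 (1.06), whose call rests on D8 CT0.0 replicate 1 (0.98 without it). ROBO2 was 0.106 and 0.155 TPM against 10.9 and 11.3 TPM untreated, and PLXNC1, a plexin that binds SEMA7A, was 0.81 and 0.46 TPM against 14.5 and 9.14 TPM. EPHB6, an Eph receptor without kinase activity, was 0.79 and 0.98 TPM against 10.95 and 15.2 TPM. For each of these 3 receptors the groups were far apart, and they fell by 3.42, 2.95 and 2.89. DCC and EFNA5 fell by 2.50 and 2.48. The neural progenitor markers summed to 312 and 317 TPM in these libraries against 1263 and 1159 TPM untreated, and the early mesoderm markers to 24.3 and 25.0 TPM against 0.98 and 1.00 TPM. The neural crest markers summed to 12.4 and 11.9 TPM, against 194 and 185 TPM, with 1 of the 5 at a mean of 1 TPM in CT4.0 and 2 in untreated cells. The part of these cells in the lower levels was not tested.

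RA on top of CT4.0 changed 21 members at day 4, 6 higher and 15 lower (5.84% of all genes called, 1.77% higher and 4.07% lower), and 25 at day 8, 16 higher and 9 lower (8.87%, 4.54% higher and 4.33% lower). The members' medians were -0.40 and 0.29, beside -0.18 and 0 for all genes. With median-of-ratios scaling, 6 were higher and 11 lower at day 4, and 16 higher and 8 lower at day 8. The members' medians were then -0.19 and 0.37. PLXNA2 rose most on both days. It was 3.38 and 4.99 TPM in D4 CT4.0 and 43.3 and 40.4 TPM in D4 CT4.0RA (3.06 ± 0.43, adjusted p = 1.16e-05), and 0.59 and 0.61 TPM in D8 CT4.0 and 157 and 152 TPM in D8 CT4.0RA (6.60 ± 0.43, adjusted p = 7.09e-11). With RA it was the most abundant plexin at day 8, with 31.5% of the plexin sum. SEMA3C, a secreted semaphorin that can attract, was 1.09 and 0.87 TPM and then 15.03 and 13.8 TPM with RA at day 4 (2.96 ± 0.24), and 0.52 and 0.235 TPM and then 8.20 and 6.52 TPM at day 8 (2.60 ± 0.24). SLIT1, SEMA3E, NRP1 and ROBO2 also rose on both days, ROBO2 from 0.106 and 0.155 to 17.6 and 14.1 TPM at day 8 (3.89 ± 0.34, adjusted p = 7.88e-09).

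Among the genes that fell with RA were SLIT2, SEMA3A, NRP2 and EPHA2; the CT4.0 libraries are shared with the comparisons above. SLIT2 was 27.6 and 29.01 TPM in D4 CT4.0 and 1.27 and 1.29 TPM with RA (-3.68 ± 0.25, adjusted p = 2.94e-10), and at day 8 it went from 17.8 and 14.8 to 2.92 and 1.85 TPM (-2.36 ± 0.25). SEMA3A fell from 45.3 and 40.7 to 3.49 and 6.26 TPM at day 4 and from 22.3 and 23.0 to 4.13 and 5.71 TPM at day 8. NRP2 fell at day 8 from 78.2 and 80.2 to 12.4 and 15.6 TPM (-2.43), EPHA2 from 100.2 and 96.8 to 21.4 and 18.3 TPM (-2.26) and SEMA5A from 15.4 and 18.1 to 2.59 and 1.94 TPM (-2.44). These genes were named on the condition that their libraries did not overlap between the groups. EPHA4, SEMA3B and PLXND1 fell on both days as well. At day 8 NTN5, a netrin at 0.22 and 0.43 TPM in CT4.0, rose to 6.24 and 6.71 TPM, a level no other group reached, and EPHB3 rose to 23.1 and 26.8 TPM, the highest of its 19 groups. PLXNB1 and PLXNB2, the most abundant members not called at day 8, changed by -0.05 and 0.38, and the sign for PLXNB1 turns under other scaling. With RA the early mesoderm markers summed to 1.12 TPM in both D4 libraries, against 32.9 and 45.8 TPM in D4 CT4.0. The neuron markers were lower with RA at day 4, 134 and 126 TPM against 302 and 389 TPM, and higher at day 8, 401 and 448 TPM against 230 and 242 TPM. The neural progenitor markers summed to 626 and 583 TPM with RA at day 4 against 415 and 399 TPM, and to 789.5 and 783 TPM at day 8 against 312 and 317 TPM. The neural crest markers summed to 5.73 and 7.31 TPM with RA at day 4 against 30.03 and 26.2 TPM, and the floor plate markers to 40.3 and 44.5 TPM at day 8 against 90.4 and 82.6 TPM. Only 1 neural crest marker in these day 4 groups and 1 floor plate marker in these day 8 groups reached a mean of 1 TPM. The part of these cells in the changes with RA was not tested.

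**Figure D4:**
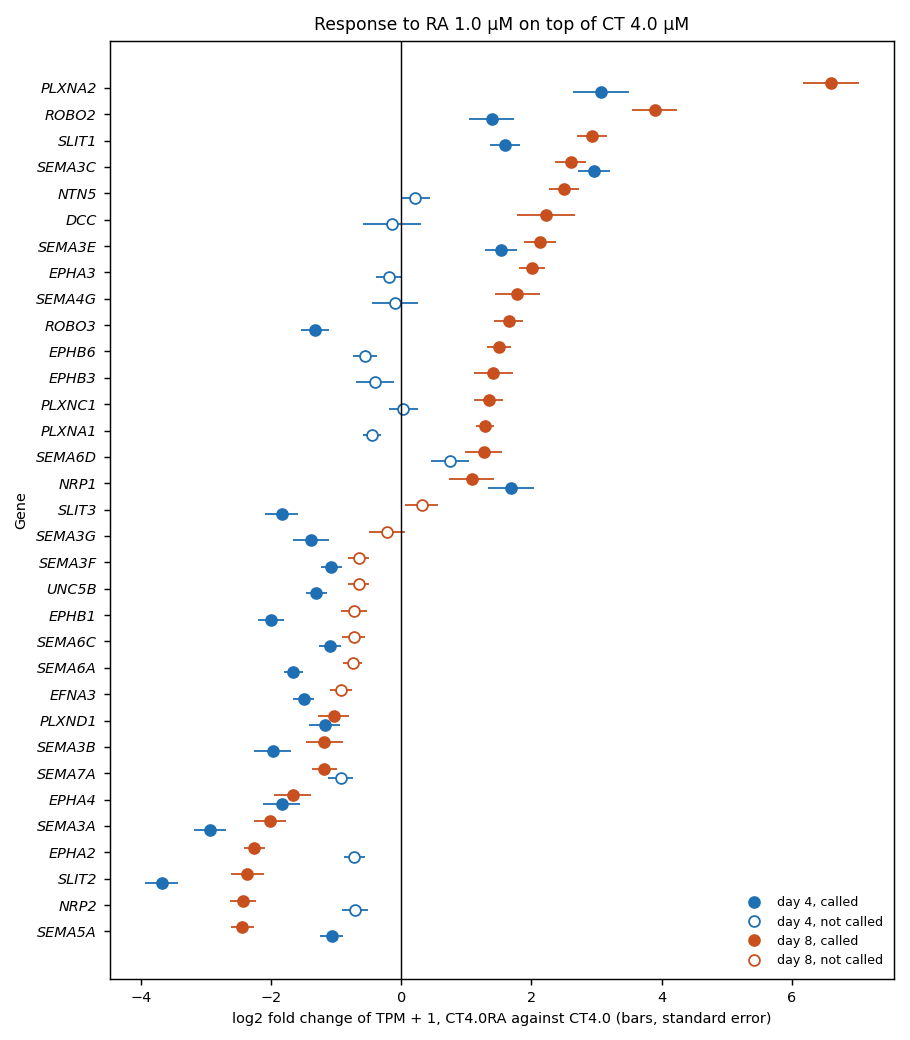
Change in log2(TPM + 1) between CT4.0RA and CT4.0 (horizontal axis; bars, standard error from limma) of the 33 genes called on either day, at day 4 (blue) and day 8 (orange); filled points were called and open points were not. PLXNA2 changed by 3.06 and 6.60, SLIT2 by -3.68 and -2.36, and ROBO3 by -1.33 and 1.65.

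The responses themselves differed between the days. They were tested as interactions, the signed log2 change at day 8 less that at day 4. A weaker fall thus counts as a more positive change, and the calls do not rank the size of responses. The change with RA was more positive at day 8 in 20 members and more negative in 3 (7.13% of all genes called, 5.56% more positive and 1.56% more negative). The medians of the difference were 0.61 for the members and 0.13 for all genes. ROBO3 reversed, with 9.05 and 8.86 TPM in D4 CT4.0 and 2.78 and 3.17 TPM in D4 CT4.0RA (-1.33), but 7.74 and 8.97 TPM in D8 CT4.0 and 26.3 and 30.3 TPM in D8 CT4.0RA (1.65); the difference of the responses was 2.97 ± 0.31 (adjusted p = 7.26e-07). The change with CT4.0 was more positive at day 8 for 7 members and more negative for 18 (8.19% of all genes called, 1.67% more positive and 6.52% more negative). The medians of that difference were -0.34 for the members and -0.18 for all genes. With median-of-ratios scaling the change with CT4.0 was more positive at day 8 for 8 members and more negative for 14, with a members' median of -0.15. NRP2 changed by -0.99 with CT4.0 at day 4, short of the limit on size, and by 2.12 at day 8, with a difference of 3.11 ± 0.28 (adjusted p = 1.16e-07). Its mean with CT4.0 was 77.8 TPM at day 4 and 79.2 TPM at day 8, while the untreated mean went from 156.0 to 17.8 TPM.

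The families differed in which member carried the level. Among ephrin-A ligands, EFNA4 stayed between 17.1 and 37.3 TPM in all 38 libraries, while EFNA3 reached 46.8 and 43.5 TPM in D8 CT3.0 and EFNA1 never exceeded 9.85 TPM. Among ephrin-B ligands, EFNB1 led in D8 IWP2 and in D8 CT4.0RA (72.2% of the family sum), and EFNB2 led in D8 CT0.4 (43.8%). Among EPHB receptors, EPHB4 led in D0 ESC (65.5%) and in D8 CT4.0RA (36.6%, with EPHB3 at 33.4%). SEMA4C made up 33.9% of the membrane semaphorin sum in D8 CT0.4 and 30.9% in D8 CT4.0RA. ROBO1 made up 85.0% of the ROBO sum in D4 CT0.0 and 41.0% in D8 CT4.0RA, where ROBO3 reached 37.4%. The sum over all 69 genes was 1196 TPM in D0 ESC, 2165 TPM in D4 CT0.0, 2318 TPM in D4 IWP2, 2227 TPM in D8 CT0.4 and 700.1 TPM in D4 CT4.0RA, the lowest of the groups.

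Other genes of the pathway were read in the same fits. Of 18 other guidance cues and co-receptors, 17 could be tested, and of 36 intracellular effectors, 35. From D0 ESC to untreated day 4, 9 of the 17 cues and co-receptors rose and 2 fell, while 3 of the 35 effectors rose and 3 fell, beside 16.8% of all genes and 20.8% of protein-coding genes called, so the effectors' count lies near the background. With CT0.4 at day 8, 5 cues and co-receptors rose and 4 fell, and 3 effectors rose and 1 fell, beside 6.03% of all genes and 7.64% of protein-coding genes. With CT4.0 at day 8 no cue or co-receptor rose and 7 fell, and no effector rose and 8 fell, beside 15.8% and 19.3%. These background shares count both directions, while the effectors' calls with CT4.0 were all lower, the more common direction among all genes there. With so few effectors called, their counts are not read as differing from the background. NEO1, a DCC relative that also binds netrins, and RGMB, a ligand of NEO1, were among those that rose in D8 CT0.4. With RA at day 8, 6 cues and co-receptors rose, among them the adhesion molecules CNTN2, CHL1 and NRCAM, and 1 fell, beside 8.87% of all genes and 11.4% of protein-coding genes. By the F test at day 8, all 17 cues and co-receptors varied among conditions, as did 21 of the 35 effectors, beside 39.6% of all genes and 52.3% of protein-coding genes.

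In hg38, with the GENCODE 29 annotation, EPHA7 lies on chromosome 6 from 93240020 to 93419547, PLXNA2 on chromosome 1 from 208022242 to 208244320, SLIT2 on chromosome 4 from 20253260 to 20620561, NRP2 on chromosome 2 from 205681990 to 205798133, and SEMA6D on chromosome 15 from 47184101 to 47774223.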

How the data were processed

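The deposited table holds TPM per gene for 38 libraries, made by the authors with Salmon 0.8.2 against hg38 after base calling with CASAVA 1.7, per the submitters' processing notes; the annotation is not given in the sources used here. Libraries were poly(A)-selected and paired-end, on 2 sequencer models that the labels do not tie to libraries. Levels were analysed as log2(TPM + 1) in limma 3.58.1 (R 4.3.3), with 1 mean for each of the 19 groups, a trended prior and 19 residual degrees of freedom, over the 28221 genes that reached 1 TPM in at least 2 libraries. A gene was called at a Benjamini-Hochberg adjusted p under 0.05 and a change of at least 1. The code was tested on simulated data. TPM carries no read counts, so no counting intervals are given. The members and gene lists were chosen with earlier results of these data known. Genes named were, for each comparison, up to 5 called members with the largest change in each direction whose libraries do not overlap (3 for interactions) and the 2 most abundant not called, and for each family the 3 most abundant and the 3 with the widest range; other names were chosen after values were seen. Alternatives were a pseudocount of 0.1, no filter on low values, median-of-ratios scaling, protein-coding genes alone, a replicate block, and each library left out. Dose steps and the CT0.4 time comparison were added after the levels were seen. Gene positions come from GENCODE 29 by gene ID (69 matched), and promoter sequences from RefSeq.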

Additional observations from a re-analysis of the deposited data

Results flagged for a closer look

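Responses that differed between day 4 and day 8 were tested as interactions in limma. For CT4.0 against untreated cells, the day 8 minus day 4 difference on the log2 scale was 3.33 for SEMA6D, 3.11 for NRP2 and 1.64 for SEMA6A. In SEMA6D, NRP2 and SEMA6A the untreated level itself fell between the days. The mean of NRP2 was 77.8 TPM in D4 CT4.0 and 79.2 TPM in D8 CT4.0, while the untreated mean went from 156.0 to 17.8 TPM. The difference was -2.39 for DCC, -2.26 for PLXND1 and -2.24 for EFNA1, 3 genes that rose between the days in untreated cells; for DCC it was -1.77, with an adjusted p of 0.0821, without D8 CT0.0 replicate 1. For RA on top of CT4.0, the difference was 3.53 for PLXNA2, 2.97 for ROBO3 and 2.51 for ROBO2. It was -1.72 for NRP2, -1.54 for EPHA2 and -1.37 for SEMA5A, whose changes with RA were more negative at day 8 than at day 4.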

How the results depend on the processing

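The counts of members called in the 16 planned comparisons stayed within 1.5 times their value in every alternative; the widest were 11 to 22 calls (15 in the report) for D4 CT1.0 and 26 to 38 (31) for D8 CT4.0 against untreated cells. Replicate numbers are shared by all groups, but the replicate differences of 171 pairs of groups correlated only between -0.04 and 0.04. No shared replicate offset was thus seen, which does not tell whether the replicates were run as paired series. With the replicate block the calls were 25 for D4 CT0.0 against D0 ESC, 31 for D8 CT4.0, 25 for RA at day 8 and 22 (23 in the report) for the RA interaction. The block changed no call of a named gene. Among the added steps, D8 CT3.0 to CT4.0 gave 2 calls with a pseudocount of 0.1, and 1 with median-of-ratios scaling or with protein-coding genes alone, in place of 0. Leaving out 1 library gave 0 to 1 calls for that step on either day, and 2 to 5 for D4 CT0.8 to CT1.0 (2 in the report). Of the named genes in planned comparisons, 6 values lost and 4 gained a call when 1 library was left out. Of the genes called in the added comparisons (dose steps and the CT0.4 time course), 47 of 552 values lost the call when 1 library was left out, 10 of 138 with median-of-ratios scaling and 1 of 138 with a pseudocount of 0.1; they include ROBO1 and SEMA4F in the day 8 step from CT2.0 to CT3.0. The signs that turned belong to PLXNB1 and PLXNB2, which were not called. With median-of-ratios scaling they were 0.051 (PLXNB1) and 0.22 (PLXNB2) for RA at day 4, 0.083 (PLXNB1) for RA at day 8, and 0.052 (PLXNB2) for D8 CT1.0. When each library was left out in turn, PLXNB1 ranged from -0.62 to 0.12 for RA at day 4, -0.25 to 0.14 for RA at day 8, -0.093 to 0.29 for D8 CT1.0 and -0.10 to 0.11 for D8 CT4.0, and PLXNB2 from -0.12 to 0.11 for untreated day 8 against day 4, -0.19 to 0.14 for D8 CT1.0 and -0.29 to 0.13 for RA at day 4. The cause was not tested. With 2 libraries a group and no read counts, levels near 0 have no known precision.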
